A study of Homo sapiens with 8 samples.

Results

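The genes described here are 10 markers of the luminal cells of the breast, AGR2, TFF1, TFF3, KRT8, KRT18, KRT19, MLPH, SPDEF, GATA3 and FOXA1, among the 23393 gene symbols of a table of read counts. They were taken from a list of luminal markers, and all 10 symbols were found in the table. RNA was sequenced from MDA-MB-231, an established human breast cancer cell line, and from its ρ0 derivative, which is labelled as lacking mitochondrial DNA (mtDNA). The study asked how loss of arginine changes gene expression in each line. The 4 groups of 2 libraries each were parental control cells in full growth medium, parental cells with arginine deprived for 48 h, ρ0 control cells, and ρ0 cells with arginine deprived for 48 h. The labels give the treatment as arginine deiminase (ADI), an enzyme that breaks down arginine, at 0.3 µg/mL, whereas the paper describes arginine-starved medium. The ρ0 cells are a single clone, number 27, and the paper's methods give their medium as holding pyruvate, uridine and ethidium bromide as supplements. Loss of mtDNA, the choice of the clone, its upkeep and its origin therefore cannot be told apart in any comparison of ρ0 with parental cells. The ρ0 libraries nearly lacked FOXA1 and TBX3 and held CDH1, EPCAM and KRT7, each with values below, and the identity of the ρ0 line was not tested. No gene of the mitochondrial genome was analysed here, so the label was not checked in that way.

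Luminal cells line the ducts and lobules of the breast. They carry the paired simple keratins KRT8 and KRT18 and are kept by transcription factors such as GATA3 and FOXA1, which act with the oestrogen receptor in hormone-responsive tumours. Small secreted trefoil peptides (TFF1, TFF3) and the endoplasmic reticulum protein AGR2 are classic oestrogen-linked products of these tumours. MDA-MB-231 is known as a triple-negative line of mesenchymal character, so a strong luminal programme is not its usual description.

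Library totals were 30986041 and 26672463 counts for parental control, 26123330 and 29356956 for starved parental, 28886136 and 30588999 for ρ0 control, and 31022155 and 25259503 for starved ρ0 cells. The ρ0 control libraries stood apart from each other, with a biological coefficient of variation of 25.1%. That value was 5.18% for parental control, 2.25% for arginine-starved parental and 1.84% for arginine-starved ρ0 libraries. Several results that hinge on 1 of the ρ0 control libraries are given below with and without it. The labels do not say whether the libraries of a group came from separate cultures, so the spread between them may be technical. The p-values rest on 1 estimate of spread per gene, shared by all 4 groups although these varied unequally. They can therefore be too small in comparisons that include the ρ0 control libraries and too large in the others.

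The receptors that define hormone-responsive luminal cells were nearly absent. ESR1, the oestrogen receptor, had 6 and 3 counts in the parental control libraries, 3 and 2 in the ρ0 control libraries and 0 in all 4 arginine-starved libraries. PGR, the progesterone receptor, had 1 count in 1 ρ0 control library and 0 in the other 7. VIM, the intermediate filament of mesenchymal cells, was at 1742 ± 62.8 CPM (counts scaled to library size by TMM, mean ± SD, n = 2 in every group) in parental control and 3284 ± 498 in ρ0 control cells. The 10 genes are therefore called luminal markers here by name, and the cells are not called luminal. As these are bulk samples, fewer cells expressing a gene and less RNA of it per cell cannot be told apart in any result below.

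Per kilobase of exon, KRT18 had the highest level of the 10 genes in every group, from 79.8 ± 2.54 CPM per kilobase in parental control to 235 ± 38.5 in ρ0 control cells. The ranks depend on the length used, the union of all annotated exons, which is 4581 bases for KRT8 and 2009 for KRT18. Which transcripts these cells used was not tested. In CPM without length, KRT8 was above KRT18 in parental control (206 ± 5.32 against 160 ± 5.11) and in ρ0 control cells (647 ± 56.6 against 472 ± 77.4). KRT8 came next in 3 groups, at 45.0 ± 1.16 in parental control, 15.6 ± 0.732 in arginine-starved parental and 141 ± 12.4 in ρ0 control cells. In arginine-starved ρ0 cells KRT8 (30.1 ± 0.348 CPM per kilobase) ranked 4 of the 10, under KRT19 (41.3 ± 5.84) and MLPH (40.4 ± 1.29), with the ranges of the latter overlapping. FOXA1 ranked 5 in both parental groups, at 2.57 ± 0.00454 and 3.35 ± 0.117 CPM per kilobase, and 10 in both ρ0 groups.

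The promoters of 4 of the genes with a RefSeq promoter are shown, chosen for their large differences in the comparisons that follow. AGR2 was far higher and FOXA1 far lower in ρ0 cells, and MLPH and SPDEF fell together in arginine-starved parental cells. Each is the 250 bases before the RefSeq start on GRCh38.p14, 5′ to 3′ on the strand of the gene. The windows are chr7:16805000-16805249 on the minus strand for AGR2, chr14:37595250-37595499 on the minus strand for FOXA1, chr2:237487001-237487250 on the plus strand for MLPH and chr6:34556330-34556579 on the minus strand for SPDEF. Capitals mark a match to a searched motif.
AGR2: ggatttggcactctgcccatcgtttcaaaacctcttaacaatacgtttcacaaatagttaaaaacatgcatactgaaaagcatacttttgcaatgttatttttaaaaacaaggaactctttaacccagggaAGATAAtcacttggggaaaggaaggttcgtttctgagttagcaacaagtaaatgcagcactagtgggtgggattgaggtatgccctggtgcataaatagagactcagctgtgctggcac
FOXA1: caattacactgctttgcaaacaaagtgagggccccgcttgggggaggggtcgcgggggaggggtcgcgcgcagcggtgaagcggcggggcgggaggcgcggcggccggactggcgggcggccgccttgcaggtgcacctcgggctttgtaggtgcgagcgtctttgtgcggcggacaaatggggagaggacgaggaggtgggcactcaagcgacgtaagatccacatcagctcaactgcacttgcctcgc
MLPH: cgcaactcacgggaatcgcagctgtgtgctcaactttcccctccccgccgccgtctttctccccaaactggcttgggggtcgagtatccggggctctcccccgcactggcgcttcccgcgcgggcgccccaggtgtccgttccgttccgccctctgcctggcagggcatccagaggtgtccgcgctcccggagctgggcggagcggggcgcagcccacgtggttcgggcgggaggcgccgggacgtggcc
SPDEF: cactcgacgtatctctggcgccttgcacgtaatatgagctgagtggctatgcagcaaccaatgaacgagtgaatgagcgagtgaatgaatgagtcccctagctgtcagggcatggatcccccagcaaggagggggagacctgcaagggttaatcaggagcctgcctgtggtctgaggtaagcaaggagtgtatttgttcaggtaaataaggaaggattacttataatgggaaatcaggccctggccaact

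RefSeq gave promoters for 6 of the 10 genes, these 4 with KRT8 and GATA3, and none was matched for TFF1, TFF3, KRT18 and KRT19. Searched on both strands were the forkhead motif TGTTTAC (present in 2.98% of 27305 promoters of this length), the GATA motif AGATAA (9.37%), the full palindromic oestrogen response element (0.0439%) and the ATF4 element TGATGCAA (0.82%). The single match was the GATA motif of AGR2, 119 bases before the start. The other 5 windows did not hold these letters, which says nothing about the binding of any factor. The windows differed in base composition, from 40.4% G and C in AGR2 and 50.8% in SPDEF to 67.2% in FOXA1 and 72.4% in MLPH.

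**Figure D1:**
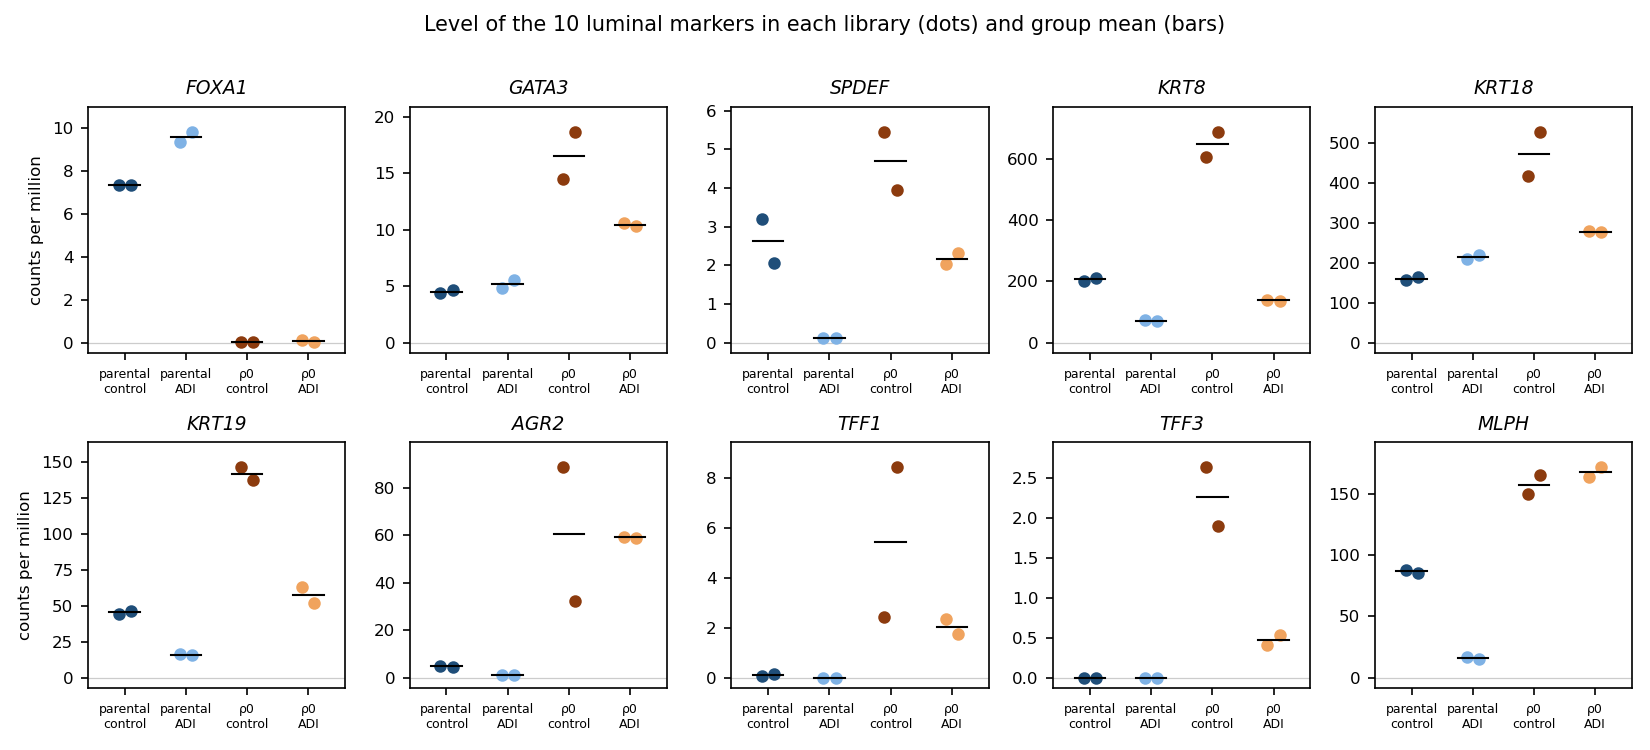
Level of each of the 10 genes in CPM (vertical axes, linear and separate for each gene) in the 8 libraries, shown as dots by group, with bars for group means. FOXA1 was seen in parental cells alone above 1 CPM, TFF3 had no count in any parental library, and the 2 ρ0 control dots of AGR2 lie far apart, at 88.5 and 32.4 CPM.

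ρ0 control and parental control cells were compared first, to see what the ρ0 clone carries before arginine is withdrawn. Most of the markers were higher in the ρ0 clone, with the keratins 2.94- to 3.14-fold, GATA3 3.66-fold and AGR2 12.3-fold higher and the trefoil genes TFF1 and TFF3 seen almost only there, whereas FOXA1 was nearly lost. A gene was a DEG where its adjusted p was under 0.05 and its log2 fold change exceeded 1 in size. Of the 10 genes, 7 were higher DEGs and 1 was a lower DEG. Among all 15262 genes tested, 13.6% were higher, 17.3% lower and 30.9% either. By adjusted p alone, 9 of the 10 were higher and 1 lower, beside 30.5% higher, 31.8% lower and 62.3% in either direction. The median log2 fold change of the 10 genes was 1.65, against -0.01 for all genes tested. All 10 genes passed the filter on low counts, but TFF1, TFF3 and FOXA1 passed only through the groups in which they are high, so that they had to differ and no p is given for them between the lines. Among the other 7 genes, 5 were higher and 0 lower DEGs, with a median of 1.64.

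FOXA1, a pioneer factor that opens chromatin for the oestrogen receptor, had 245 and 212 counts in the parental control libraries and 1 and 1 in the ρ0 control libraries. The libraries of the lines did not overlap. Summed over libraries and scaled for depth, the parental level was 220-fold higher, with an exact (Clopper-Pearson) 95% interval from 60.7 to 1825 that covers counting error alone.

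GATA3, the zinc-finger factor of luminal identity, moved the other way. It had 146 and 134 counts in parental control and 417 and 579 in ρ0 control libraries, or 4.52 ± 0.196 and 16.5 ± 2.94 CPM. Both ρ0 control libraries were above both parental ones, with a log2 fold change of 1.87 (SE 0.16, adjusted p = 5.8e-05 by edgeR's quasi-likelihood test, as for the other adjusted p). SPDEF, an Ets factor of secretory epithelium, had 107 and 59 counts in parental control and 157 and 123 in ρ0 control libraries. All its ρ0 control values were higher, but the log2 difference of 0.83 (SE 0.26, adjusted p = 0.026) passed the test without reaching the fold threshold for DEGs. It reached that threshold without the first parental control library (1.19) or without the second ρ0 control library (1.09). SPDEF no longer passed the test without the second parental control library (0.54, adjusted p = 0.16), in the libraries of the 2 groups alone (0.081) and with limma-voom with a weight per group (0.14).

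The simple keratins form the filaments of luminal cells, KRT8 pairing with KRT18 and KRT19 being a type I partner as well. KRT8 had 6750 and 6043 counts in parental control and 17498 and 21366 in ρ0 control libraries, a log2 fold change of 1.65 (SE 0.09, adjusted p = 7.0e-06). KRT18 had 5226 and 4719 counts against 12029 and 16381, with a log2 fold change of 1.56 (SE 0.12, adjusted p = 2.6e-05). KRT19 had 1480 and 1341 counts against 4217 and 4270, with a log2 fold change of 1.64 (SE 0.11, adjusted p = 1.6e-05). The ρ0 control libraries were the higher ones for each keratin, with fold changes of 3.14, 2.94 and 3.12, respectively. KRT8 and KRT18 are neighbours whose annotated exons share 135 bases on opposite strands, 2.95% of the exon bases of KRT8 and 6.72% of those of KRT18. The sources used here do not state whether counting used the strand, so reads in those bases cannot be told apart. The processed pseudogene KRT19P2 had 118 and 72 counts in parental control and 294 and 287 in ρ0 control libraries, and how the counting split reads between it and KRT19 was not tested.

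Among the secreted and secretory-pathway products, AGR2, a disulphide isomerase of the endoplasmic reticulum, had 170 and 135 counts in parental control and 2552 and 1007 in ρ0 control libraries. The ρ0 control libraries were both higher but lay far apart, at 88.5 and 32.4 CPM. The log2 fold change was 3.62 (SE 0.44, adjusted p = 2.8e-04), and it was 2.72 without the first ρ0 control library and 4.23 without the second. TFF1, a trefoil peptide and a textbook oestrogen target, had 3 and 4 counts in parental control and 70 and 262 in ρ0 control libraries. The ratio for TFF1 was 49.2, with an exact 95% interval from 23.6 to 123 for counting error. The fitted log2 fold change of 5.54 became 6.17 without the first ρ0 control library and 4.43 without the second. TFF3, its relative, had 0 counts in all 4 parental libraries and 76 and 59 in ρ0 control libraries, which made it at least 23.4-fold higher in ρ0 control cells against a floor of 3 counts per library. A count of 0 allowed up to 0.0899 to 0.119 CPM in the parental libraries.

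MLPH, melanophilin, links the small GTPase RAB27A to myosin Va and is a marker of luminal tumours as well as of melanocytes. It had 2927 and 2470 counts in parental control and 4318 and 5138 in ρ0 control libraries, or 86.8 ± 1.39 and 158 ± 10.9 CPM. The libraries of the lines did not overlap, and the log2 difference of 0.86 (SE 0.09, adjusted p = 1.3e-04) was under the fold threshold. Of the melanocyte markers, TYR had 1 count in all 8 libraries together and MLANA had 5 or fewer in each. MITF, a factor that other cells also express, had 1510 and 1250 counts in parental control, 2194 and 2673 in arginine-starved parental, 1192 and 1582 in ρ0 control and 844 and 726 in arginine-starved ρ0 libraries. TYRP1, a melanosome enzyme, had 23 and 13, 59 and 71, 8 and 3, and 1 and 7 counts in the same order. PMEL had 138 and 107 counts in parental control, 7 and 17 in arginine-starved parental, 79 and 59 in ρ0 control and 36 and 30 in arginine-starved ρ0 libraries. On arginine starvation of parental cells PMEL fell (-3.13, SE 0.35, adjusted p = 1.6e-04), as MLPH did, while MITF (1.03, SE 0.11, adjusted p = 1.6e-04) and TYRP1 (2.07, SE 0.47, adjusted p = 0.0060) rose.

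**Figure D2:**
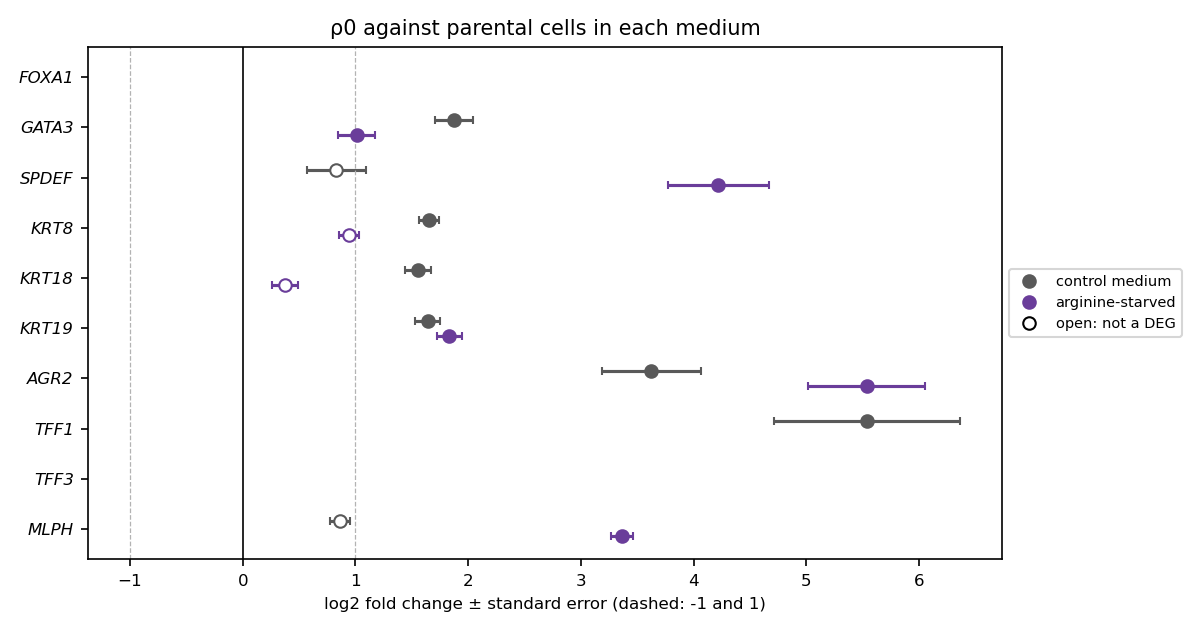
Log2 fold change of ρ0 against parental cells (horizontal axis, ± standard error) in control and arginine-starved cells for 7 genes in both media and TFF1 in control medium, with filled points for DEGs and open points for the rest. FOXA1, TFF3 and arginine-starved TFF1 are left out because 1 group held almost no counts. TFF1 passed the filter on low counts only through ρ0 cells, so its mark is not read as a test. MLPH and SPDEF stood at 0.86 and 0.83 in control cells and at 3.36 and 4.22 in arginine-starved cells, while KRT8 and KRT18 moved towards 0.

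Arginine starvation of parental cells was examined next. It lowered MLPH 5.32-fold, KRT8 2.88-fold, KRT19 2.82-fold and AGR2 3.85-fold, and took SPDEF down to 3 counts a library. GATA3 and FOXA1 did not pass the test, and KRT18 was slightly higher. DEGs among the 10 genes were 0 higher and 5 lower, beside 12.7% higher and 22.1% lower of all 15262 genes tested (34.9% in either direction). By adjusted p alone, 1 of the 10 was higher and 5 were lower, beside 30.4%, 35.5% and, in either direction, 65.9%. The median log2 fold change was -1.51 for the 10 genes and -0.07 for all genes tested. Of the 12 mesenchymal markers tested, 4 were higher and 4 lower DEGs in the same comparison, beside the same shares. In ρ0 cells 0 were higher and 1 was lower, beside 4.22% and 8.19% of all genes tested. By adjusted p alone, 4 were higher and 5 lower in parental cells, beside 30.4% and 35.5%. In ρ0 cells 3 were higher and 4 lower by adjusted p alone, beside 19.2% and 22.1%. SNAI2, SNAI1, ZEB2 and ZEB1, repressors of epithelial genes, rose in parental cells, SNAI2 with a log2 fold change of 2.11 (SE 0.09, adjusted p = 6.7e-06) and SNAI1 with 1.92 (SE 0.15, adjusted p = 4.0e-05). VIM, the intermediate filament of mesenchymal cells, fell from 56616 and 51425 to 13630 and 14734 counts (-1.71, SE 0.12, adjusted p = 2.5e-05), and CAV1, FN1 and SPARC fell too. In ρ0 cells SNAI2 (0.81, adjusted p = 4.2e-04), ZEB2 (0.998, adjusted p = 6.5e-04) and ZEB1 (0.65, adjusted p = 0.0018) also rose, under the fold threshold. SNAI1 fell there (-0.82, adjusted p = 0.013), also under that threshold. The part of these markers in the luminal result was not tested.

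SPDEF had 107 and 59 counts in parental control libraries and 3 and 3 in arginine-starved parental libraries. The fall left both starved libraries at the floor of 3 counts. The ratio of summed counts was 23.8, with an exact 95% interval from 10.7 to 65.8 for counting error, and the fitted log2 fold change was -4.50 (SE 0.43, adjusted p = 8.6e-05). MLPH had 2927 and 2470 counts in parental control and 436 and 433 in arginine-starved parental libraries. Its log2 fold change was -2.41 (SE 0.10, adjusted p = 6.6e-06), with tight replicates in both groups.

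KRT8 fell from 6750 and 6043 to 1868 and 1953 counts in the arginine-starved parental libraries, with a log2 fold change of -1.53 (SE 0.09, adjusted p = 1.3e-05). KRT19 fell from 1480 and 1341 to 410 and 452 counts, with a log2 fold change of -1.50 (SE 0.11, adjusted p = 3.1e-05). KRT18 went from 5226 and 4719 counts to 5302 and 6170. For KRT8 and KRT19 every arginine-starved library was below every control library, whereas for KRT18 the arginine-starved libraries were the higher ones in CPM (214 ± 6.19 against 160 ± 5.11). The log2 fold change of KRT18 was 0.42 (SE 0.11, adjusted p = 0.013), under the threshold for DEGs. It no longer passed the test with upper quartile scaling (adjusted p = 0.052), with total counts (0.091) or without any 1 of the 4 parental libraries. In those fits without a parental library the log2 fold change was 0.39 to 0.45. The rise of KRT18 did pass with DESeq2 (adjusted p = 0.0020), in the parental libraries alone (5.0e-07) and with limma-voom with a weight per group (7.4e-07). The ratio of KRT8 to KRT18 counts was accordingly 1.29 and 1.28 in parental control and 0.352 and 0.317 in arginine-starved parental libraries.

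AGR2 had 170 and 135 counts in parental control and 30 and 38 in arginine-starved parental libraries, with a log2 fold change of -1.94 (SE 0.54, adjusted p = 0.014). The groups did not overlap. The call was lost with limma-voom (adjusted p = 0.12). It was also lost without the first parental control library (log2 fold change -1.88) and without the first (-1.86) or the second (-2.04) arginine-starved library. The call held with DESeq2 (adjusted p = 1.5e-05), in the parental libraries alone (1.4e-07) and with limma-voom with a weight per group (1.1e-05). The log2 fold change stayed between -2.10 and -1.86 in all alternatives. TFF1 had 3 and 4 counts in control and 0 and 0 in arginine-starved parental libraries, too few for a fold to be read, and TFF3 had none in either group.

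Among the transcription factors, GATA3 had 146 and 134 counts in parental control and 121 and 157 in arginine-starved libraries, with a log2 fold change of 0.20 (SE 0.17, adjusted p = 0.33). FOXA1 had 245 and 212 against 236 and 277 counts, with a log2 fold change of 0.38 (SE 0.17, adjusted p = 0.085). In CPM the arginine-starved FOXA1 libraries, at 9.35 and 9.82, were both above the control libraries, at 7.35 and 7.36. Neither difference passed the test, which does not show that the levels were equal. That of FOXA1 did pass with limma-voom (adjusted p = 0.044) and with weights per group (0.0072), in the parental libraries alone (0.0022), and without the first (0.0044) or the second (0.0021) ρ0 control library, over a range of adjusted p up to 0.29 in all alternatives.

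In ρ0 cells arginine starvation gave a different pattern. KRT8, KRT19 and TFF3 fell, SPDEF fell less than in parental cells, and MLPH and AGR2 did not pass the test. DEGs among the 10 genes were 0 higher and 4 lower, beside 4.22% higher, 8.19% lower and 12.4% in either direction among all genes tested. By adjusted p alone, 0 were higher and 6 lower, beside 19.2%, 22.1% and, in either direction, 41.3%. The median log2 fold change was -0.94, against -0.02 for all genes tested. FOXA1 had 4 and 1 counts in the arginine-starved and 1 and 1 in the control libraries, too few for a fold to be read.

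KRT8 had 17498 and 21366 counts in ρ0 control and 4106 and 3296 in arginine-starved ρ0 libraries, the largest fall among the 3 keratins, with a log2 fold change of -2.23 (SE 0.09, adjusted p = 3.5e-05). KRT19 had 4217 and 4270 against 1869 and 1248 counts, with a log2 fold change of -1.30 (SE 0.11, adjusted p = 2.2e-04). KRT18 had 12029 and 16381 against 8287 and 6666 counts, with a log2 fold change of -0.76 (SE 0.11, adjusted p = 0.0019) that was under the threshold for DEGs. Every arginine-starved library was below every ρ0 control library for the 3 keratins. The ratio of KRT8 to KRT18 counts was 1.46 and 1.30 in ρ0 control and 0.496 and 0.494 in arginine-starved ρ0 libraries, so that KRT8 was again lowered relative to its partner.

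TFF3 had 76 and 59 counts in ρ0 control and 12 and 13 in arginine-starved ρ0 libraries, with a log2 fold change of -2.26 (SE 0.34, adjusted p = 0.0048). It lost the call without the first arginine-starved library (adjusted p = 0.056). SPDEF had 157 and 123 against 60 and 56 counts, with a log2 fold change of -1.11 (SE 0.27, adjusted p = 0.014). The SPDEF groups did not overlap. Its call was lost without the first ρ0 control library (-0.87, under the fold threshold), without the first (adjusted p = 0.11) or the second (0.072) arginine-starved library, and with limma-voom with a weight per group (0.076).

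GATA3 had 417 and 579 counts in ρ0 control and 312 and 250 in arginine-starved ρ0 libraries, with a log2 fold change of -0.66 (SE 0.16, adjusted p = 0.013), past the test and under the fold threshold. It no longer passed the test in the ρ0 libraries alone (adjusted p = 0.066) or without the first (0.082) or the second (0.090) arginine-starved ρ0 library. MLPH had 4318 and 5138 against 4849 and 4140 counts, or 158 ± 10.9 and 168 ± 5.37 CPM. These MLPH groups overlapped, and the log2 fold change was 0.09 (SE 0.09, adjusted p = 0.45). Its value was 0.02 without the first ρ0 control library and 0.17 without the second.

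For AGR2 and TFF1 the response of ρ0 cells turned on which ρ0 control library was used. AGR2 had 2552 and 1007 counts in ρ0 control and 1756 and 1423 in arginine-starved ρ0 libraries. The arginine-starved libraries lay between the control libraries, with a log2 fold change of -0.03 (SE 0.38, adjusted p = 0.97) that became 0.87 without the first ρ0 control library and -0.57 without the second. TFF1 had 70 and 262 counts in ρ0 control and 70 and 42 in arginine-starved ρ0 libraries, with a log2 fold change of -1.40 (SE 0.56, adjusted p = 0.091). Without the first ρ0 control library the value for TFF1 was -2.02, and without the second -0.21. The high ρ0 control library was the first for AGR2 and the second for TFF1, and the part of the difference between these libraries in the results was not tested further.

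**Figure D3:**
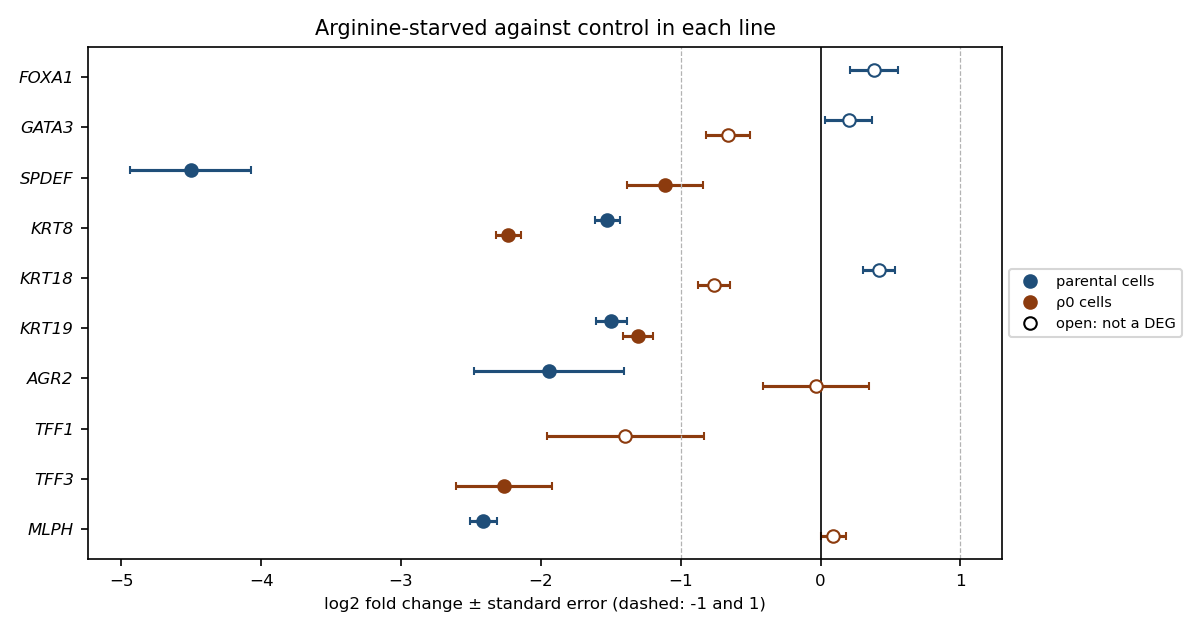
Log2 fold change of arginine-starved against control cells (horizontal axis, ± standard error) in parental and ρ0 cells, with filled points for DEGs and open points for the rest. KRT8 and KRT19 lie left of -1 in both lines, MLPH lies at -2.41 in parental and 0.09 in ρ0 cells, and KRT18 lies on opposite sides of 0. TFF1 and TFF3 in parental cells and FOXA1 in ρ0 cells had too few counts to be drawn.

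Whether the lines differed in their response was tested as an interaction, the log2 fold change in ρ0 cells minus that in parental cells. A response could be fitted in both lines for 8 of the 10 genes, TFF1 among them with almost no counts in parental cells. The difference passed the test for 5 of them, 2 with a higher and 3 with a lower value in ρ0 cells, beside 21.6% higher, 18.8% lower and 40.4% in either direction among all genes tested.

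The 2 higher differences were those of MLPH, at 2.50 (SE 0.13, adjusted p = 8.0e-05), and SPDEF, at 3.39 (SE 0.55, adjusted p = 0.0033). MLPH fell in parental cells alone by the test, and SPDEF fell further in parental than in ρ0 cells. The 3 lower differences were those of KRT18, at -1.18 (SE 0.16, adjusted p = 0.0017), KRT8, at -0.71 (SE 0.12, adjusted p = 0.0045), and GATA3, at -0.86 (SE 0.23, adjusted p = 0.022). KRT18 was higher in starved parental and lower in starved ρ0 cells, GATA3 had responses of 0.20 and -0.66, and KRT8 fell in both lines. GATA3 lost this call in 5 of the 8 fits that left out a library, at adjusted p from 0.066 to 0.096.

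KRT19 had a difference of 0.19 (SE 0.15, adjusted p = 0.35), with responses of -1.50 in parental and -1.30 in ρ0 cells. AGR2 had a difference of 1.91 (SE 0.66, adjusted p = 0.053), which passed the test in 6 of 9 alternatives. The value for AGR2 passed the test both at 2.82 without the first ρ0 control library and at 1.34 without the second, so its size turned on that pair. TFF1 had 3.35 (SE 3.10, adjusted p = 0.43), with almost no counts behind its parental response.

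After arginine starvation, the ρ0 cells again held more of most markers than parental cells. DEGs were 7 higher and 1 lower of the 10 genes, beside 18.7% higher, 16.8% lower and 35.5% in either direction among all genes tested. Without TFF1, TFF3 and FOXA1, 5 of 7 were higher and 0 lower DEGs, with a median log2 fold change of 1.83. By adjusted p alone, 9 of the 10 were higher and 1 lower, beside 32.9%, 33.5% and, in either direction, 66.5%. Over all 10 the median was 2.60, against -0.01 for all genes tested. This comparison and the one in control cells use different libraries, and each shares its libraries with the responses above.

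MLPH had 436 and 433 counts in arginine-starved parental and 4849 and 4140 in arginine-starved ρ0 libraries, a 10.3-fold difference (log2 3.36, SE 0.10, adjusted p = 5.4e-07). SPDEF had 3 and 3 against 60 and 56 counts, a ratio of 19.2 with an exact 95% interval from 8.58 to 53.5 for counting error (adjusted p = 1.2e-04). AGR2 had 30 and 38 against 1756 and 1423 counts, a 46.4-fold difference (log2 5.54, SE 0.52, adjusted p = 6.6e-05). For each of these genes no arginine-starved parental library came near any arginine-starved ρ0 library.

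TFF1 had 0 counts in both arginine-starved parental libraries and 70 and 42 in arginine-starved ρ0 libraries, at least 18.2-fold higher against the floor of 3 counts per library. TFF3 had 0 against 12 and 13 counts, at least 4.19-fold higher. FOXA1 had 236 and 277 against 4 and 1 counts, so that the parental level was 103-fold higher, with an exact 95% interval from 43.9 to 319 for counting error. The fitted log2 difference of FOXA1, -6.63, was -7.69 without the first arginine-starved ρ0 library and -6.07 without the second. The presence of the trefoil genes and the near absence of FOXA1 thus marked the ρ0 libraries in both media.

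KRT19 remained higher in ρ0 cells, at 57.4 ± 8.11 against 16.1 ± 0.151 CPM (log2 fold change 1.83, SE 0.11, adjusted p = 9.4e-06). KRT8 was at 138 ± 1.59 against 71.6 ± 3.36 CPM, with a log2 fold change of 0.94 (SE 0.09, adjusted p = 6.8e-05), and KRT18 at 278 ± 2.81 against 214 ± 6.19 CPM, with 0.38 (SE 0.11, adjusted p = 0.020). Both passed the test and were under the threshold for DEGs, and KRT18 no longer passed without any 1 of the 4 arginine-starved libraries (adjusted p = 0.059 to 0.11). GATA3 was at 10.5 ± 0.134 against 5.18 ± 0.547 CPM, with a log2 fold change of 1.01 (SE 0.17, adjusted p = 0.0011), which was 0.91 without the first arginine-starved parental library and so no longer a DEG.

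The order of the groups differed among the 10 genes. ρ0 control cells had the highest mean for 8 of them, the exceptions being MLPH, with its highest mean in arginine-starved ρ0 cells, and FOXA1, with its highest in arginine-starved parental cells. Neighbours in the order whose libraries overlapped were the ρ0 groups of AGR2 and of MLPH, the parental control and arginine-starved ρ0 groups of SPDEF (2.63 ± 0.819 and 2.17 ± 0.206 CPM), and the parental groups of TFF3, both at 0. For KRT8 the parental control cells came second, above arginine-starved ρ0 cells, whereas for KRT18, KRT19 and GATA3 both ρ0 groups came first.

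Across the 8 libraries, which fall into 4 groups and share the difference between lines, the log2 levels of the 10 genes were compared as a description. Pearson's r was 0.94 between KRT8 and KRT19 but 0.67 between KRT8 and KRT18, its filament partner. It was 0.97 between KRT18 and GATA3 and 0.94 between MLPH and SPDEF. FOXA1 ran against all 9 others, from -0.96 with TFF1 to -0.62 with KRT8. The gene most like each marker outside the list, among 13204 genes over the 8 libraries, was SLC35B2 for AGR2, PTRF for KRT8, SAR1B for KRT18, MYH9 for KRT19, WDR60 for MLPH, MYOF for SPDEF, POP4 for GATA3 and SH3BGRL2 for FOXA1, and TRMO and ATP6V0E1 for TFF1 and TFF3. With so many genes and 8 libraries, all of these r were 0.99 or more.

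The paralogs and partners of the markers were counted as a list of 16 genes, of which 13 were tested. ρ0 control against parental control cells gave 5 higher and 3 lower DEGs, beside 13.6% and 17.3% of all genes tested. TFF2, the trefoil gene that lies between TFF1 and TFF3, had 702 and 670 counts in parental control and 133 and 226 in ρ0 control libraries (log2 fold change -1.90, SE 0.21, adjusted p = 1.7e-04). The trefoil genes thus differed in opposite directions between the lines within 1 cluster. TFF2 also fell on arginine starvation of parental cells, to 65 and 76 counts (-3.07, SE 0.23, adjusted p = 2.9e-05), and had 88 and 76 counts in arginine-starved ρ0 libraries.

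The genes on either side of the trefoil cluster, looked up after the values of its members were seen, differed as well. ABCG1, a sterol transporter next to TFF3, had 3 and 5 counts in parental control and 673 and 531 in ρ0 control libraries. TMPRSS3, a serine protease next to TFF1, had 247 and 196 counts in parental control and 7 and 10 in ρ0 control libraries. In the order ABCG1, TFF3, TFF2, TFF1, TMPRSS3, the ρ0 control libraries were thus higher for ABCG1, TFF3 and TFF1 and lower for TFF2 and TMPRSS3. AGR3, the paralog beside AGR2, had 0 counts in all 8 libraries.

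KRT7, a simple keratin of duct epithelia, had 112 and 87 counts in parental control and 20000 and 38390 in ρ0 control libraries (log2 fold change 8.24, SE 0.32, adjusted p = 1.9e-06). ρ0 cells on arginine starvation held 12835 and 10419 counts of it, and arginine-starved parental cells 191 and 224. KRT7 thus rose in parental cells (1.28, SE 0.29, adjusted p = 0.0058) and fell in ρ0 cells (-1.16, SE 0.23, adjusted p = 0.0064). In ρ0 control cells its level per length, at 550 ± 218 CPM per kilobase, was above that of KRT18.

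ELF3 and EHF are epithelial Ets factors of the family of SPDEF. ELF3 had 23 and 22 counts in parental control, 5 and 6 in arginine-starved parental, 1011 and 935 in ρ0 control and 1679 and 1334 in arginine-starved ρ0 libraries. EHF had 2949 and 2229, 397 and 414, 7196 and 5918, and 4507 and 3818 counts in the same order. As with SPDEF, both were lowest in arginine-starved parental cells, with log2 fold changes there of -1.80 (SE 0.27, adjusted p = 7.3e-04) for ELF3 and -2.45 (SE 0.15, adjusted p = 1.4e-05) for EHF.

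RAB27B, a small GTPase of vesicle docking and a relative of the partner of MLPH, had 809 and 601 counts in parental control, 38 and 45 in arginine-starved parental, 2307 and 2484 in ρ0 control and 3087 and 2496 in arginine-starved ρ0 libraries. Its order of groups was that of MLPH. Its log2 fold change in parental cells was -3.86 (SE 0.12, adjusted p = 4.7e-06), and the interaction was 4.24 (SE 0.15, adjusted p = 3.6e-05). RAB27A, the partner itself, had log2 fold changes of -0.37 (SE 0.12, adjusted p = 0.031) in parental and -1.15 (SE 0.13, adjusted p = 6.0e-04) in ρ0 cells on arginine starvation. MYO5A, the myosin of the complex, had -0.30 (SE 0.09, adjusted p = 0.022) and 0.04 (SE 0.09, adjusted p = 0.78).

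FOXA2, a paralog of FOXA1, was expressed in every group, with 1663 and 1615 counts in parental control and 1170 and 1062 in ρ0 control libraries (log2 fold change -0.50, SE 0.12, adjusted p = 0.0085). FOXA3 had 72 and 75 counts in parental control and 10 and 13 in ρ0 control libraries (-2.62, SE 0.31, adjusted p = 2.5e-04). GATA6, of the family of GATA3, rose on arginine starvation in both lines, by log2 1.58 (SE 0.22, adjusted p = 5.2e-04) and 1.19 (SE 0.22, adjusted p = 0.0044). GATA3 did not share that rise in either line.

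Other genes of the luminal programme were counted as a second list, and its difference from the 10 markers was not tested. Of 22 listed genes, 18 were tested, and ρ0 control against parental control cells gave 5 higher and 6 lower DEGs, beside 13.6% higher and 17.3% lower among all genes tested, with a median log2 fold change of -0.07. Without 2 genes that had under 10 counts in every ρ0 library and so entered the test through parental cells alone, 5 of 16 were higher and 4 lower. The higher ones were FBP1, a gluconeogenic enzyme (2.85, SE 0.18, adjusted p = 1.3e-05), MUC1, a cell surface mucin (2.83, SE 0.24, adjusted p = 5.0e-05), TSPAN1 (1.61), NAT1 (1.52) and KIAA1324 (1.24). TBX3, a T-box factor of mammary development, had 549 and 453 counts in parental control, 83 and 103 in arginine-starved parental, 0 and 0 in ρ0 control and 0 and 1 in arginine-starved ρ0 libraries. It was nearly absent from ρ0 libraries, as FOXA1 was among the 10, and at least 161-fold higher in parental control than in ρ0 control cells against the floor of 3 counts per library.

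On arginine starvation this list gave 2 higher and 8 lower DEGs in parental cells (12.7% and 22.1% of all genes tested) and 1 higher and 7 lower in ρ0 cells (4.22% and 8.19%). ERBB3, a receptor tyrosine kinase of the EGFR family, fell in both lines, with log2 fold changes of -3.64 (SE 0.15, adjusted p = 6.6e-06) in parental and -1.24 (SE 0.15, adjusted p = 8.4e-04) in ρ0 cells. XBP1, a factor of the unfolded protein response as well as a luminal marker, rose in both, by log2 2.53 (SE 0.16, adjusted p = 1.6e-05) and 1.68 (SE 0.15, adjusted p = 3.1e-04). The mammary secretory genes PIP and SCGB2A2 had 0 counts in all 8 libraries.

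Genes of epithelial adhesion and splicing, 16 listed and 12 tested, gave 9 higher and 1 lower DEGs in ρ0 control against parental control cells, beside 13.6% and 17.3% of all genes tested. CDH1, CLDN3, ESRP1 and OVOL2 had under 10 counts in every library of 1 line and entered the test through the other line alone, and without them 7 of 8 were higher and 0 lower. CDH1, E-cadherin, had 2 and 0 counts in parental control and 457 and 440 in ρ0 control libraries, a ratio of 465 with an exact 95% interval from 128 to 3847 for counting error. EPCAM, an epithelial adhesion molecule, had 14 and 15 against 684 and 697 counts (log2 fold change 5.61, SE 0.23, adjusted p = 2.2e-06). Both were low or absent in parental libraries and present in all ρ0 libraries. On arginine starvation the list gave 0 higher and 5 lower DEGs in parental cells (12.7% and 22.1% of all genes tested). In ρ0 cells it gave 3 higher and 2 lower (4.22% and 8.19%). The higher ones were CLDN7, ESRP1 and OVOL2. ESRP1 rose from 2 and 2 to 15 and 16 counts and OVOL2 from 0 and 0 to 5 and 4, too few for these calls to be read.

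**Figure D4:**
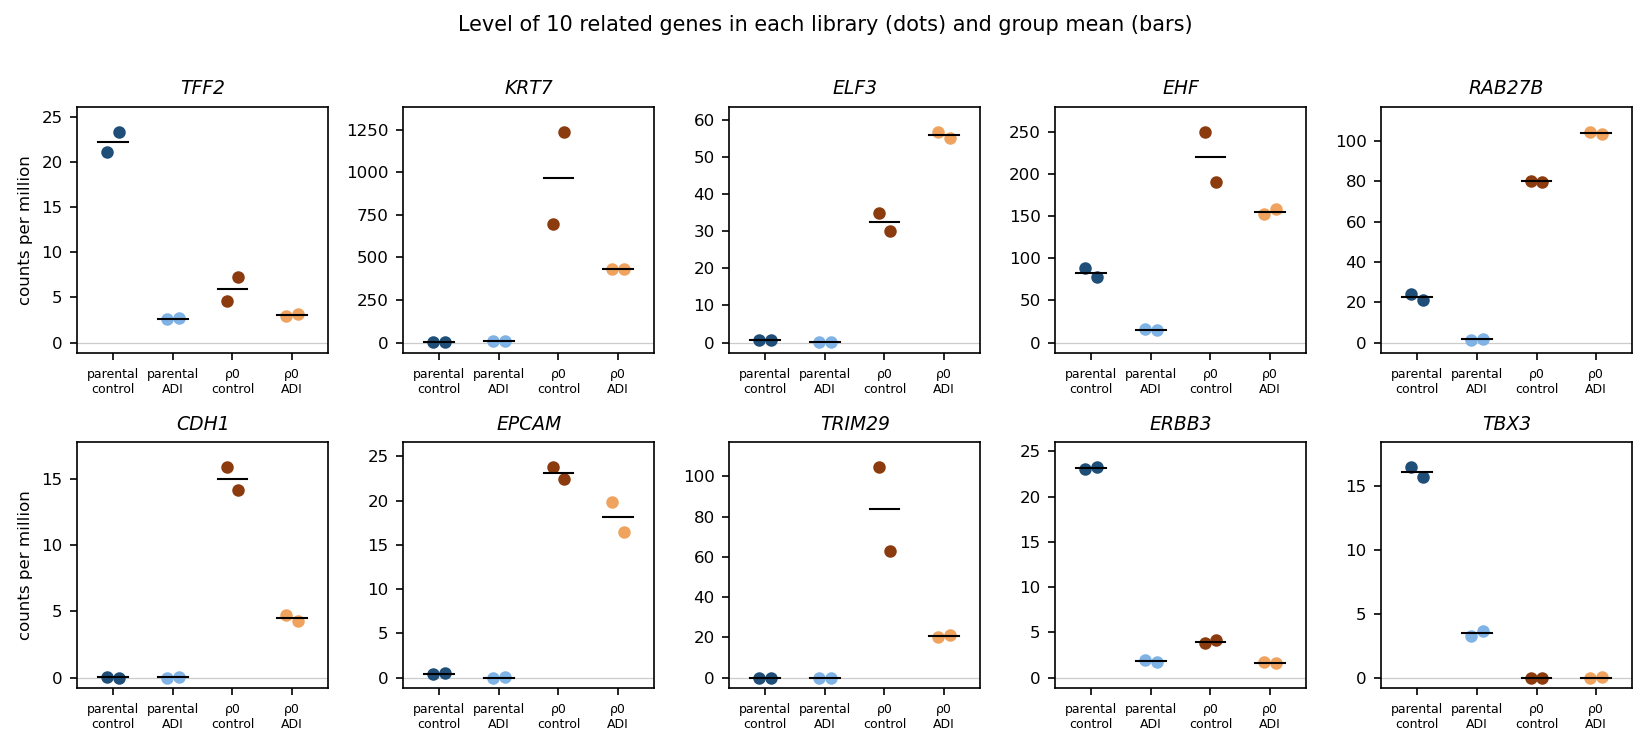
Level of 10 related genes in CPM (vertical axes, linear and separate for each gene) in the 8 libraries, shown as dots by group, with bars for group means. KRT7, ELF3, CDH1, EPCAM and TRIM29 were far higher in ρ0 libraries and TBX3 in parental libraries, while TFF2, EHF, RAB27B and ERBB3 fell in arginine-starved parental cells.

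Markers of other cell states were counted in the same way. Of 15 basal markers 8 were tested, with 5 higher and 0 lower DEGs in ρ0 control against parental control cells, beside 13.6% and 17.3% of all genes tested. KRT17, SFRP1, TP63 and TRIM29 had under 10 counts in every parental library and entered the test through ρ0 cells alone, and without them 1 of 4 was higher and 0 lower. TRIM29, a basal marker, had 4 and 1 counts in parental control and 3008 and 1962 in ρ0 control libraries, while the basal keratins KRT5 and KRT14 had 2 or fewer in every library. The 14 mesenchymal markers, 12 of them tested, gave 3 higher and 1 lower beside the same shares (2 and 1 of 11 without CDH2, which had under 10 counts in every library of 1 line), and their summed level was 4226 and 4314 CPM in parental control and 7853 and 8178 CPM in ρ0 control libraries, of which VIM made up 1697 and 1786, and 2932 and 3635 CPM. The summed level of the 10 luminal markers was 511 and 525 CPM in parental control, 333 and 336 in arginine-starved parental, 1434 and 1582 in ρ0 control, and 721 and 710 in arginine-starved ρ0 libraries. The part of the epithelial, basal and mesenchymal markers in the luminal result was not tested.

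Cells of other origin were looked for with 7 blood, 7 stromal and 7 melanocyte markers, of which 3, 4 and 3 were tested. CD3E and HBB had 0 counts in all 8 libraries. The stromal list gave 1 higher (LUM) and 1 lower DEG (COL3A1) in ρ0 control against parental control cells. The blood list gave 1 higher (CD14) and 0 lower, and the melanocyte list 0 and 0. Among all genes tested, 13.6% were higher and 17.3% lower. With under 10 counts in every parental library, LUM entered the test through ρ0 cells alone. Without it, 0 of 3 stromal markers were higher and 1 was lower. LUM, a stromal proteoglycan, had 2 and 1 counts in parental control and 160 and 100 in ρ0 control libraries, COL3A1, a fibrillar collagen, had 31 and 39 against 6 and 5, and CD14 had 6 and 4 against 92 and 77. The most abundant genes of these lists were CD68, COL1A1 and MITF, and their summed levels in parental control and ρ0 control libraries were 100 and 100 against 125 and 110 CPM (blood), 19.2 and 21.7 against 36.7 and 15.6 CPM (stromal), and 50.4 and 47.9 against 44.6 and 53.1 CPM (melanocyte).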

How the data were processed

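The authors deposited the 8 libraries as 1 table of raw counts for each gene symbol, not normalized. The submitters' processing notes name Bowtie, Partek and the hg19 build, and the strand used in counting is not given in the sources used here. Genes are therefore given by symbol, and coordinates only for RefSeq promoters on GRCh38.p14. Exon lengths are the union of all exons of a gene in the GENCODE v29 basic annotation.

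After filterByExpr on group had retained 15262 of 23393 genes and TMM scaling, edgeR 4.0.16 in R 4.3.3 was used for 1 quasi-likelihood fit over every library (1 mean per group, 4 residual and 3.40 prior degrees of freedom, common biological coefficient of variation 12.4%). P-values were adjusted over all genes tested by the Benjamini-Hochberg method. The thresholds for DEGs are those of the study, and the interaction had no fold threshold. A group with all libraries at 0 was set to a floor of 3 counts per library. Groups with few counts were compared by the ratio of summed counts with an exact 95% interval. PCR reads without molecular identifiers are not independent molecules, so intervals and floors cover counting error only.

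The markers and all gene lists were chosen with earlier results of these data known. Genes named from other lists are up to 4 DEGs per list and contrast with the largest change and a mean of at least 1 CPM, or genes singled out by their counts. MITF, CD68 and COL1A1 are named as the most abundant of their lists, ABCG1 and TMPRSS3 as neighbours, and RAB27A, MYO5A, FOXA2, CD3E, HBB, KRT5, KRT14, TYRP1, COL3A1, VIM, CAV1, ZEB1, ZEB2, the genes named as tested through 1 line alone and the receptors were chosen after their values were seen. Likeness was Pearson's r of log2 CPM (prior count 2). Alternatives were other scalings, filters, DESeq2 1.42.0, limma-voom (limma 3.58.1), a replicate block, fits to the libraries of a contrast alone, no fold threshold and leaving out each library. The fit was tested on simulated data.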

Additional observations from a re-analysis of the deposited data

Results flagged for a closer look

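In 5 of the 10 luminal markers the response to arginine starvation differed between the lines by edgeR's quasi-likelihood test of the interaction (ρ0 minus parental, on the log2 scale), as it did in 40.4% of all genes tested. The differences were 3.39 for SPDEF, which fell further in parental cells, 2.50 for MLPH, which fell in parental cells and did not pass the test in ρ0 cells, and -1.18 for KRT18, -0.71 for KRT8 and -0.86 for GATA3, which lost this call in 5 of the 8 fits that left out a library. Groups of 2 libraries were too small to be searched for libraries far from the rest of their group.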

How the results depend on the processing

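The 10 alternatives beside leaving out a library were 3 other scalings, 2 filters, 3 other fits, a replicate block and the libraries of a contrast alone. Requiring at least 10 counts in every library kept 6 of the 10 genes in the test, and the DEGs among them were then 2 for arginine starvation in ρ0 cells, 5 for ρ0 against parental control cells and 4 for the same comparison after arginine starvation. Leaving out each library in turn gave 2 to 4 DEGs for arginine starvation in ρ0 cells. The change of AGR2 in ρ0 cells, which passed no test with all libraries, turned from -0.03 to 0.15 with limma-voom, 0.16 with limma-voom with a weight per group (added after seeing the data) and 0.076 with the replicate block, and ran from -0.57 to 0.87 when libraries were left out. With a lone library in a group, that library is assumed to vary like the other groups. Deviations of libraries with the same replicate number had correlations from -0.05 to 0.04 between groups, so the numbers were not taken to pair the libraries. The replicate block gave 6 genes with a differing response in place of 5, AGR2 being added (2.01, adjusted p = 0.036), and every other count of DEGs among the 10 genes was the same with the block. KRT8 became a DEG after arginine starvation under upper quartile scaling (1.01) and GATA3 ceased to be one under total counts (0.998). Scaling by the upper quartile or by total counts moved the median of all genes for arginine starvation of parental cells from -0.07 to -0.19 and -0.23. Otherwise direction and side of the threshold were kept in 420 values under these alternatives and 346 with a library left out, while calls were lost in 3 and 13 and gained in 9 and 8. The low counts of TFF1, TFF3 and, in ρ0 cells, FOXA1 limit the precision of their folds.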
